A study of Mus musculus with 8 samples.

Results

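The interleukin 6 family is described here through 10 genes: the ligand genes Il6, Il11, Lif, Osm and Clcf1, the receptor genes Il6ra, Il6st, Osmr and Lifr, and Socs3, an inhibitor that the pathway induces. They were chosen by name, with no measured value in the rule, but with earlier results of these data known. All 10 were found among the 16547 genes that hold values in every library. The tissue was mouse heart, and every group had been through ischemia-reperfusion, in which a coronary supply is blocked and then restored. The 4 groups received PBS, iFTn-M4, iFTn-R4 or iFTn-MR4 as 2 doses on alternate days, the nanocages at 2.5 mg/kg of protein, and RNA was taken after 3 days. The series title calls these agents engineered ionizable protein nanocages that act as nanozymes against superoxide inside cells, and the labels do not say what M4, R4 and MR4 stand for. Each group has 2 libraries. The strain, sex and age of the mice are not given in the sources used here, no uninjured heart was analysed here, and all comparisons are therefore among injured hearts.

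Cytokines of this family bind a ligand-specific receptor chain and then engage a shared signalling chain, encoded by Il6st. The engaged chains activate Janus kinases, which phosphorylate the transcription factor STAT3, and STAT3 induces Socs3, whose protein binds the shared chain and the kinases and shuts the signal down. In the injured heart the family is known for acute inflammatory signalling, for survival signals to cardiomyocytes and, through interleukin 11, for the activation of fibroblasts.

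Sequencing was of oligo-dT selected mRNA. The 16547 genes with values in every library held between 13618128 and 15729311 expected counts per library. Between 15525 and 15851 of these genes had a count. Levels are CPM, counts scaled to the TMM-adjusted depth of each library, given as mean ± SD (n = 2). A library with no count of a gene lies below 0.188 to 0.227 CPM, the value of 3 counts. All 7 cardiomyocyte markers were present in each group, with a summed level of 31400 to 56300 CPM over the 8 libraries, so the tissue carried its defining markers. Fold changes are log2 ± SE from edgeR's quasi-likelihood test on all 8 libraries, and the words rose and fell are kept for an adjusted p under 0.05, by the Benjamini-Hochberg method over the 13953 tested genes. All 10 members passed the filter on low counts, Il11 with at most 11 counts in any nanocage library. PBS and nanocage values were deposited in separate tables, and in comparisons with PBS a difference between tables cannot be told apart from one between groups. In bulk tissue, fewer cells of a type and less RNA per cell cannot be told apart. Where the libraries of 2 groups are said not to overlap, the share of all tested genes without overlap was not counted.

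The members lie on 7 chromosomes of GRCm38.p6 in the RefSeq annotation, and 4 of them form neighbouring pairs. Osm (Entrez gene 18413, chr11:4236785-4241026) lies 16.5 kb from Lif (16878, chr11:4257568-4272514). Osmr (18414, chr15:6813568-6874968) lies 215.6 kb from Lifr (16880, chr15:7090610-7197489). In both pairs 0 coding genes lie wholly between the neighbours. The other members are Il6 (16193, chr5:30013114-30019975), Il11 (16156, chr7:4772373-4782907), Clcf1 (56708, chr19:4214238-4223505), Il6ra (16194, chr3:89869324-89913196), Il6st (16195, chr13:112464070-112506860) and Socs3 (12702, chr11:117966079-117970336).

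RefSeq promoter sequences, which run from 250 bases before to 50 bases after a transcript start, were at hand for 8 of the 10 members. They were searched on both strands for the STAT motif TTCNNNGAA and for the AP-1 motif TGANTCA. The STAT motif was found in Socs3 alone of the 8, against 9.55% of 27025 genes, and its stricter form TTCCNGGAA, which is contained in the first, was in 0 of 8 against 1.35% of genes. The AP-1 motif was found in 4 of 8, namely Il6, Il11, Lif and Osmr, against 8.97% of genes. A loose NF-kB motif, 3 G followed after 5 bases by 2 C, was in 8 of 8 and in 53.5% of all genes. The 250 bases before the start are printed for the inhibitor and for the 3 ligands whose match lies upstream, because these are among the members that fell. They read 5′ to 3′ on the gene's own strand, and capitals mark the motif match.
Socs3, STAT motif, chr11:117969367-117969616, minus strand: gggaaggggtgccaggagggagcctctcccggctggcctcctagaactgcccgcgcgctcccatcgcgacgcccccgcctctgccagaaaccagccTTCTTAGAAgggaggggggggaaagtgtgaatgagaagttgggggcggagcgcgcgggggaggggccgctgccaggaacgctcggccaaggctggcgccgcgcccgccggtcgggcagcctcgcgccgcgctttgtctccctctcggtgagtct
Il6, AP-1 motif, chr5:30012864-30013113, plus strand: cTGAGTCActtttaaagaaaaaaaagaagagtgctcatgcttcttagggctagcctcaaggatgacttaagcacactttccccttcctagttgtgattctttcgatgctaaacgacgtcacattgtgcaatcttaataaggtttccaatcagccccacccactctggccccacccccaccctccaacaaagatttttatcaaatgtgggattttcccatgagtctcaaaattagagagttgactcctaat
Il11, AP-1 motif, the downstream of its 2 starts, chr7:4778142-4778391, minus strand: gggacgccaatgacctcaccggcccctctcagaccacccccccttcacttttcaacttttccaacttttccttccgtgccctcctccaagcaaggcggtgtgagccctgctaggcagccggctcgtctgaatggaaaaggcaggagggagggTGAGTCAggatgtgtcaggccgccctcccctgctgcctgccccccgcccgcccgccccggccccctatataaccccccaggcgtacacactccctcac
Lif, AP-1 motif, chr11:4257318-4257567, plus strand: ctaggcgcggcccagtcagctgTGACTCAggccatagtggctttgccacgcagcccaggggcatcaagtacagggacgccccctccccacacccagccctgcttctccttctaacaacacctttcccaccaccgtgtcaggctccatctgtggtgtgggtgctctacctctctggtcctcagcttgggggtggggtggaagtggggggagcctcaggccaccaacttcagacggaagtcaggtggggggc
The first base of the match lies 154 bases before the start in Socs3, 249 in Il6, 98 in Il11 and 228 in Lif. A match of letters is a description of the sequence and not a measured binding site.

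The ligand genes and Socs3 had lower means in each nanocage group than in PBS, and the receptor genes did not share that pattern. In iFTn-M4 7 of the 10 members fell and 2 rose, beside 21.4% of all tested genes that fell and 19.8% that rose. In iFTn-MR4 7 fell and 2 rose as well, beside 26.3% and 24.6% of all genes. In iFTn-R4 3 fell and 2 rose, beside 15.4% and 13.9%. The median log2 fold change over the 10 members against PBS was -1.15 in iFTn-M4, -0.51 in iFTn-R4 and -1.59 in iFTn-MR4, where that of all tested genes was 0.00 in each. These 3 comparisons share the PBS libraries. Without PBS replicate 2 the number of members called against PBS was 4 of 10 in iFTn-M4, where 9 were called with all libraries, and 3 in iFTn-R4, where 5 were called. Without iFTn-M4 replicate 2 the number for iFTn-M4 was 4 too.

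**Figure D1:**
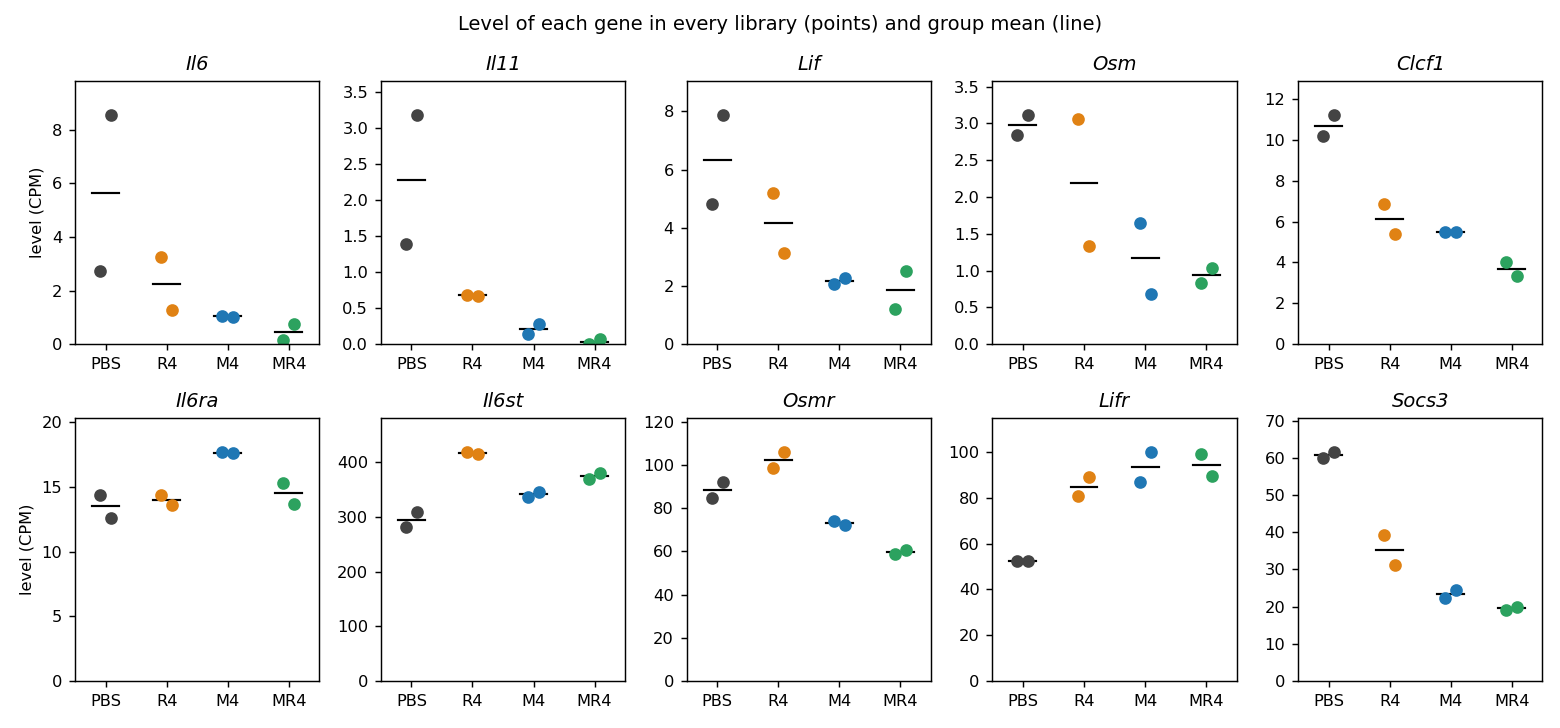
Level of each of the 10 genes (y axis, CPM, starting at 0, with its own scale in each panel) in the 2 libraries of each group (points) and the group mean (line), with groups in the order PBS, iFTn-R4, iFTn-M4, iFTn-MR4. The 5 ligands (upper row) and Socs3 (last panel) are highest on average in PBS and lowest in iFTn-MR4, Lifr is lowest in PBS, and Osmr is highest in iFTn-R4.

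Among the ligands, Il6, the cytokine that names the family and drives the acute phase response, was measured at 2.72 and 8.53 CPM in PBS, 3.25 and 1.26 in iFTn-R4, 1.07 and 1.03 in iFTn-M4, and 0.151 and 0.742 in iFTn-MR4. Both iFTn-M4 and both iFTn-MR4 libraries were below both PBS libraries, while the higher iFTn-R4 library lay above the lower PBS library. Il6 fell in iFTn-M4 (1.05 ± 0.0279 CPM, where PBS had 5.62 ± 4.11, with a log2 fold change of -2.40 ± 0.65 and an edgeR adjusted p = 0.0149) and in iFTn-MR4 (-3.62 ± 0.76, adjusted p = 0.00335). The iFTn-R4 difference did not pass (-1.30 ± 0.57, adjusted p = 0.114). Over both libraries the iFTn-MR4 group held 12 counts against 172 in PBS, a 12.4-fold lower level with a counting interval of 6.9 to 24.4. The size depended on single libraries: without PBS replicate 2 the iFTn-M4 value was -1.36 (adjusted p = 0.146) and the iFTn-MR4 value -2.58, and without PBS replicate 1 they were -3.01 and -4.22. The iFTn-M4 call also ended without either iFTn-M4 library (adjusted p = 0.0749 and 0.0886) and in limma-trend on log2(TPM + 0.1) (0.0557) or on log2(TPM + 1) with no filter (0.0615). The iFTn-MR4 value lay at -2.89 without iFTn-MR4 replicate 1 and at -5.12 without replicate 2, and the iFTn-R4 difference passed without iFTn-R4 replicate 1 (-2.15, adjusted p = 0.0462) or PBS replicate 1 (-1.91, adjusted p = 0.0376).

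Il11, a ligand that acts on fibroblasts and other stromal cells, had expected counts of 22 and 48 in PBS, 11 and 10 in iFTn-R4, 2 and 4 in iFTn-M4, and 0 and 1 in iFTn-MR4. No group overlapped the PBS libraries. The nanocage groups did not overlap each other either, but iFTn-MR4 against iFTn-M4 rests on 1 count against 6. That ratio was 0.178 with a counting interval of 0.00387 to 1.47, which includes no difference. Summed over libraries, the level was 3.35-fold lower in iFTn-R4 than in PBS (counting interval 2.03 to 5.74), 10.7-fold lower in iFTn-M4 (4.69 to 30.2) and 60.4-fold lower in iFTn-MR4 (10.5 to 2420). Il11 fell in all 3 comparisons with PBS, with edgeR adjusted p = 0.0262 in iFTn-R4, 0.0023 in iFTn-M4 and 0.000553 in iFTn-MR4, while the fitted log2 fold changes (-1.74 ± 0.49, -3.38 ± 0.62 and -5.63 ± 0.86) depend on the prior count at such low counts. The iFTn-R4 call ended without PBS replicate 2 (-1.03, adjusted p = 0.228) and without either iFTn-R4 library (adjusted p = 0.0667 and 0.0754). It also ended with the length offset described with the receptors (-1.56, adjusted p = 0.0629), with only the compared groups in the fit (0.0573) and in limma-trend on log2(TPM + 0.1) (0.121). Without PBS replicate 2 the fitted value was -2.68 in iFTn-M4 and -4.93 in iFTn-MR4, and it lay at -4.77 and -8.07 without iFTn-MR4 replicate 1 or 2.

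Lif, which signals through Lifr together with Il6st, was measured at 4.8 and 7.86 CPM in PBS, 5.19 and 3.12 in iFTn-R4, 2.08 and 2.27 in iFTn-M4, and 1.21 and 2.52 in iFTn-MR4. The iFTn-R4 libraries overlapped PBS, and those of iFTn-M4 and iFTn-MR4 were below PBS and overlapped each other. Lif fell in iFTn-M4 (-1.54 ± 0.38, adjusted p = 0.00977) and iFTn-MR4 (-1.75 ± 0.39, adjusted p = 0.0045) but was not called in iFTn-R4 (-0.60 ± 0.34, adjusted p = 0.215). The iFTn-M4 call ended without PBS replicate 2 (adjusted p = 0.0781), iFTn-M4 replicate 1 (0.058) or iFTn-M4 replicate 2 (0.0548), and the iFTn-MR4 value was -2.37 without iFTn-MR4 replicate 2.

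Osm, a ligand made largely by neutrophils and macrophages that binds Osmr with Il6st in the mouse, was measured at 2.84 and 3.11 CPM in PBS, 3.06 and 1.33 in iFTn-R4, 1.65 and 0.689 in iFTn-M4, and 0.832 and 1.04 in iFTn-MR4. The PBS libraries were close together, and 1 of the iFTn-R4 libraries lay between them. Osm fell in iFTn-M4 (-1.35 ± 0.46, adjusted p = 0.0406) and iFTn-MR4 (-1.66 ± 0.48, adjusted p = 0.0173), and iFTn-R4 did not pass (-0.43 ± 0.42, adjusted p = 0.469). The iFTn-M4 call ended in DESeq2 (adjusted p = 0.0595), in each of 3 limma-trend fits on TPM (0.0641 to 0.0919), with the length offset (0.0861), and without PBS replicate 1 (0.0995), PBS replicate 2 (0.132), iFTn-M4 replicate 2 (-0.85, 0.253) or iFTn-MR4 replicate 1 (0.0619) or 2 (0.0623), while without iFTn-M4 replicate 1 the value was -2.11. The iFTn-MR4 call ended without either PBS library (0.0511 and 0.0647) and without either iFTn-MR4 library (0.102 and 0.0664).

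Clcf1, which signals through the ciliary neurotrophic factor receptor, was measured at 10.2 and 11.2 CPM in PBS, 6.88 and 5.37 in iFTn-R4, 5.51 and 5.51 in iFTn-M4, and 4.01 and 3.34 in iFTn-MR4. All 6 nanocage libraries were below both PBS libraries. Clcf1 fell in iFTn-M4 (-0.96 ± 0.18, adjusted p = 0.00254), in iFTn-R4 (-0.81 ± 0.18, adjusted p = 0.00915) and in iFTn-MR4 (-1.55 ± 0.19, adjusted p = 0.000168). The iFTn-R4 call ended without PBS replicate 2 (-0.74, adjusted p = 0.0593).

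The summed level of neutrophil markers was below PBS in iFTn-M4 and iFTn-MR4, like the ligands. In iFTn-R4, where Il11 and Clcf1 fell, it overlapped PBS. The 9 neutrophil markers were all present in each group and summed to 179 to 244 CPM in PBS, 140 to 189 in iFTn-R4, 50.5 to 84.7 in iFTn-M4 and 48.8 to 53.7 in iFTn-MR4. Of the 8 tested neutrophil markers, 6 fell in iFTn-M4, 2 in iFTn-R4 and 7 in iFTn-MR4 against PBS. The shares of all tested genes that fell were 21.4%, 15.4% and 26.3%, so the iFTn-R4 count is near its background. The 10 monocyte and macrophage markers, likewise all present, summed to 1560 to 2410 CPM in PBS, 1530 to 1550 in iFTn-R4, 1990 to 2300 in iFTn-M4 and 1700 to 1760 in iFTn-MR4, and those ranges overlap PBS in 2 of the 3 nanocages. Of these 10 markers 4 fell in iFTn-M4, 4 in iFTn-R4 and 5 in iFTn-MR4, while 1, 0 and 1 rose, with median log2 fold changes of -0.22, -0.47 and -0.60. Beside the falling shares above, 19.8%, 13.9% and 24.6% of all tested genes rose. The part of either cell type in the ligand differences was not tested.

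The receptor chains did not move as 1 group. Lifr, the chain for Lif and Clcf1 signalling, was higher in every nanocage, and Il6st, the shared chain, rose in iFTn-R4 and iFTn-MR4. Osmr, the chain for Osm, fell in iFTn-M4 and iFTn-MR4 but not in iFTn-R4, where its mean was the highest of the 4 groups.

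Lifr was measured at 52.6 and 52.6 CPM in PBS, 80.6 and 89.2 in iFTn-R4, 86.7 and 100 in iFTn-M4, and 99.3 and 89.4 in iFTn-MR4. The nanocage groups were all above PBS, and their libraries overlapped for iFTn-R4 with iFTn-M4 and for iFTn-M4 with iFTn-MR4. Lifr rose in iFTn-M4 (0.83 ± 0.10, adjusted p = 0.000212), iFTn-R4 (0.69 ± 0.10, adjusted p = 0.00137) and iFTn-MR4 (0.84 ± 0.10, adjusted p = 0.000109). Lifr has an effective transcript length of 8.49 kb, above that of 96.8% of the genes, and fold changes against PBS rose with length across genes. Across the 13953 genes the Spearman correlation of fold change with length was 0.39, 0.50 and 0.35 for iFTn-M4, iFTn-R4 and iFTn-MR4 against PBS, and 0.01 to 0.07 between nanocages, as a description of genes that are not independent. With a length offset in the fit Lifr still rose, at 0.45 ± 0.10 (adjusted p = 0.00664), 0.34 ± 0.10 (0.045) and 0.45 ± 0.10 (0.00445).

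Il6st was measured at 282 and 309 CPM in PBS, 419 and 416 in iFTn-R4, 337 and 346 in iFTn-M4, and 369 and 380 in iFTn-MR4. The 4 groups did not overlap, with PBS lowest and iFTn-R4 highest. Il6st rose in iFTn-R4 (0.50 ± 0.08, adjusted p = 0.00221) and in iFTn-MR4 (0.34 ± 0.08, adjusted p = 0.00499), and its difference in iFTn-M4 did not pass (0.21 ± 0.08, adjusted p = 0.0536). With the length offset, at an effective length of 5.14 kb, the values were 0.28 ± 0.08 (adjusted p = 0.0379) in iFTn-R4, 0.13 ± 0.08 (0.182) in iFTn-MR4 and -0.01 ± 0.08 (0.967) in iFTn-M4. The iFTn-MR4 call also ended without PBS replicate 1 (0.28, 0.0523), and the iFTn-M4 difference passed on library totals (0.23, 0.0313), in limma-trend on TPM (0.40, 0.00243) and without either iFTn-R4 library (0.20 in both, 0.0379 and 0.0377).

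Osmr was measured at 84.7 and 92.3 CPM in PBS, 98.4 and 106 in iFTn-R4, 74.1 and 72 in iFTn-M4, and 58.7 and 60.5 in iFTn-MR4. Its 4 groups did not overlap, in the order iFTn-R4, PBS, iFTn-M4 and iFTn-MR4 from high to low. Osmr fell in iFTn-MR4 (-0.57 ± 0.08, adjusted p = 0.000281) and in iFTn-M4 (-0.28 ± 0.08, adjusted p = 0.0161), and iFTn-R4 did not pass (0.21 ± 0.07, adjusted p = 0.0636). The iFTn-M4 call ended in DESeq2 (adjusted p = 0.0504), in limma-trend on TPM (-0.08, 0.384) and without PBS replicate 2 (-0.21, 0.115) or iFTn-M4 replicate 2 (-0.26, 0.0908). The iFTn-R4 difference passed on library totals (0.27, 0.0181), in limma-trend on TPM (0.46, 0.00266) and without iFTn-R4 replicate 1 (0.25, 0.0469), and it was 0.03 with the length offset (0.823).

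Il6ra, the chain that binds interleukin 6 itself and is also shed in soluble form, was measured at 14.4 and 12.6 CPM in PBS, 14.4 and 13.6 in iFTn-R4, 17.7 and 17.6 in iFTn-M4, and 15.3 and 13.7 in iFTn-MR4. Only the iFTn-M4 libraries lay outside the range of the other groups. Il6ra rose in iFTn-M4 (0.39 ± 0.12, adjusted p = 0.0258), and it did not pass in iFTn-R4 (0.05 ± 0.12, 95% interval -0.21 to 0.32) or iFTn-MR4 (0.10 ± 0.12, -0.17 to 0.37). The iFTn-M4 call ended in DESeq2 (adjusted p = 0.118) and without PBS replicate 2 (0.29, 0.161), iFTn-M4 replicate 1 (0.109) or iFTn-M4 replicate 2 (0.0942).

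Summed levels of stromal and muscle markers also differed between the groups. The 7 fibroblast markers were all present and summed to 4760 to 4950 CPM in PBS, 5950 to 8260 in iFTn-R4, 7400 to 9130 in iFTn-M4 and 5800 to 6720 in iFTn-MR4. The 6 endothelial markers, all present, summed to 1190 to 1330, 1620 to 1690, 1470 to 1500 and 1580 to 1650 CPM in the same order of groups. The 5 smooth muscle and pericyte markers summed to 593 to 653, 795 to 949, 1060 to 1090 and 1000 to 1230 CPM, and the cardiomyocyte markers to 41400 to 41500, 31400 to 31800, 47500 to 51100 and 55600 to 56300 CPM. Every nanocage library was above every PBS library in the first 3 of these sums. The cardiomyocyte sums were below PBS in iFTn-R4 and above PBS in the other nanocages. The part of these cells in the receptor differences was not tested.

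**Figure D2:**
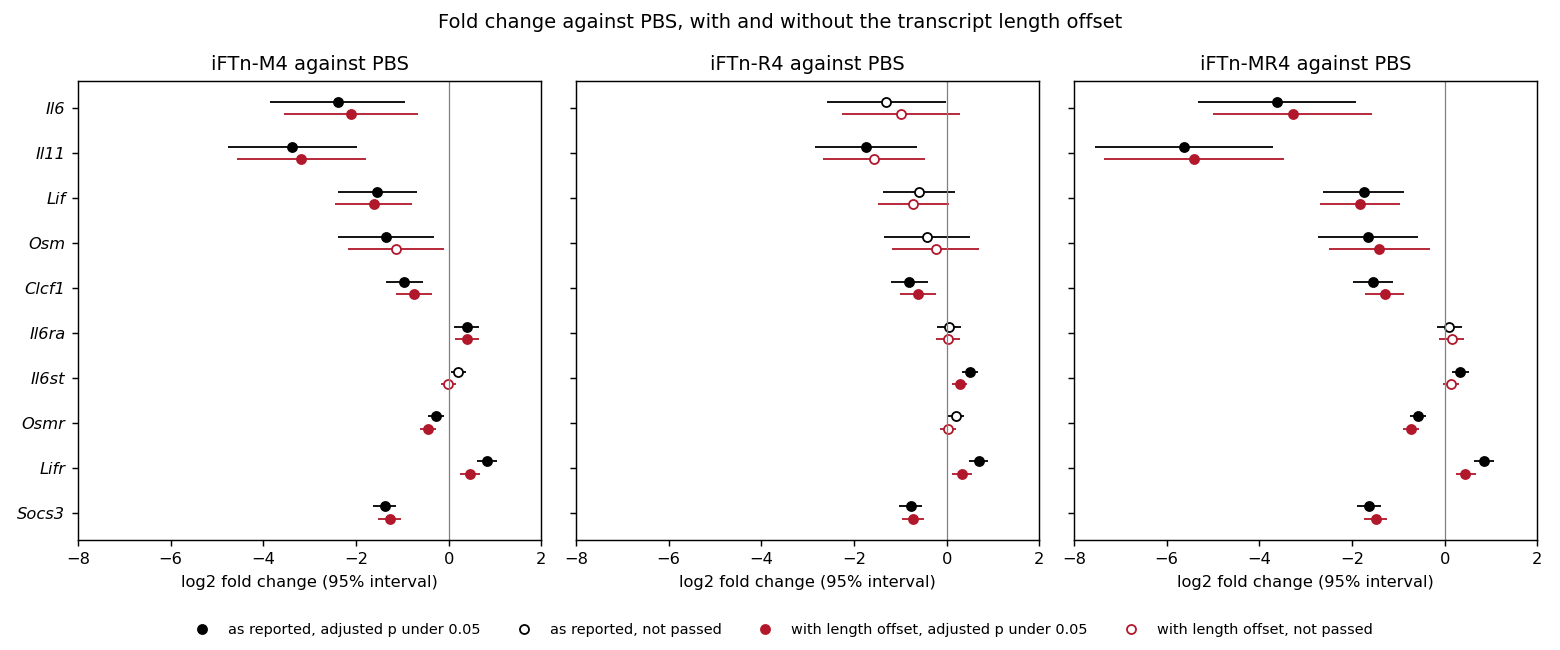
Log2 fold change of each gene against PBS (x axis, points, with 95% intervals as lines) in edgeR for each nanocage, as reported (black) and with an offset for transcript length (red); filled points have an adjusted p under 0.05. Ligands and Socs3 lie left of 0 in each panel, Lifr lies right of 0 with both settings, and the iFTn-M4 value of Il6st moves from 0.21 to -0.01.

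Socs3, the feedback inhibitor, fell in every nanocage. It was measured at 59.9 and 61.6 CPM in PBS, 39.3 and 31.3 in iFTn-R4, 22.2 and 24.4 in iFTn-M4, and 19.2 and 20 in iFTn-MR4. No groups overlapped, and the order from high to low was PBS, iFTn-R4, iFTn-M4 and iFTn-MR4. Socs3 fell in iFTn-M4 (23.3 ± 1.57 against 60.7 ± 1.2 CPM, -1.38 ± 0.11, adjusted p = 3.67e-05), in iFTn-R4 (35.3 ± 5.63 CPM, -0.78 ± 0.11, adjusted p = 0.00137) and in iFTn-MR4 (19.6 ± 0.545 CPM, -1.63 ± 0.11, adjusted p = 9.53e-06). These 3 calls were kept in all 17 alternatives that were run.

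Between the nanocages, iFTn-MR4 against iFTn-R4 gave 4 members that fell and 0 that rose, beside 14.6% and 12.6% of all tested genes. Socs3 fell (-0.85 ± 0.12, adjusted p = 0.0012), as did Osmr (-0.78 ± 0.08, adjusted p = 0.000348), Clcf1 (-0.74 ± 0.20, adjusted p = 0.0221) and Il11 (-3.90 ± 1.07, adjusted p = 0.0242). The Il11 difference rests on 1 count against 21, an 18-fold lower level with a counting interval of 2.9 to 746. Il6 (-2.32 ± 0.84, adjusted p = 0.0665), Lif (-1.15 ± 0.40, 0.0596) and Osm (-1.23 ± 0.50, 0.0971) did not pass. Their libraries did not overlap between the 2 groups, which was also so for Il6st and Lifr, neither of them called. The share of all tested genes without overlap was not counted, so the lack of overlap does not set these members apart. Of the 8 tested neutrophil markers, 7 fell in iFTn-MR4 by the same test, beside 14.6% of all tested genes, and their part was not tested. The number of members called was 2 without iFTn-R4 replicate 1 or either iFTn-MR4 library, and 7 without iFTn-R4 replicate 2. The calls that ended were those of Clcf1 (adjusted p = 0.057 to 0.13) and Il11 (0.0584 to 0.137), and those gained were Il6 (-2.83, 0.0247), Lif (-1.46, 0.0227) and Osm (-1.70, 0.0188). The fitted value of Il11 ran from -6.35 to -3.06 and that of Il6 from -3.84 to -1.47 when a library was left out. In DESeq2 Il6 passed (adjusted p = 0.00874) and Clcf1 (0.0651) and Il11 (0.0501) did not. Il6 passed too in limma-trend on log2(TPM + 0.1) (0.0372) and without either PBS library (0.032 and 0.0343), and Lif on library totals (0.0433). Clcf1 did not pass with only the compared groups in the fit (0.0723), nor Il11 in limma-trend on log2(TPM + 1) with or without a filter (0.0847 and 0.0792). Il6st, not called by edgeR, passed on library totals (-0.25, 0.0281) and in limma-trend on TPM (-0.27, 0.0182).

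In iFTn-R4 against iFTn-M4, Osmr (0.48 ± 0.08, adjusted p = 0.00851) and Socs3 (0.60 ± 0.11, adjusted p = 0.0176) rose and 0 members fell, beside 3.43% and 2.5% of all tested genes. Il6st was at 417 ± 2.05 against 342 ± 6.44 CPM and did not pass (0.29 ± 0.08, adjusted p = 0.0589), though it did in DESeq2 (0.0365), on library totals (0.0263) and in limma-trend on TPM (0.0219). The ligand differences did not pass, with intervals of -0.48 to 2.68 for Il6, -0.03 to 3.31 for Il11, 0.06 to 1.81 for Lif, -0.15 to 1.99 for Osm and -0.26 to 0.57 for Clcf1. Both calls ended without iFTn-M4 replicate 2 (0.0863 for Osmr and 0.0916 for Socs3), and that of Socs3 also without iFTn-M4 replicate 1 (0.10). With only the compared groups in the fit both ended too (0.052 and 0.0866), and that of Socs3 in limma-trend on log2(TPM + 1) with no filter (0.0511). Of the 8 tested neutrophil markers 2 rose too, beside 3.43% of all tested genes, and their part was not tested.

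In iFTn-MR4 against iFTn-M4, 0 of the 10 members were called by edgeR, beside 0.0215% of all tested genes that rose and 0.344% that fell, and 0 by DESeq2 or limma-trend. At an unadjusted p under 0.05 there were 3, namely Osmr (-0.29 ± 0.08, adjusted p = 0.118), Clcf1 (-0.58 ± 0.20, adjusted p = 0.184) and Il6ra (-0.28 ± 0.12, adjusted p = 0.254). Lifr was nearly level (0.01 ± 0.09, 95% interval -0.20 to 0.22), whereas the intervals of Il6 (-3.35 to 0.92) and Il11 (-5.31 to 0.81) allow large differences either way. Without iFTn-R4 replicate 2, a library of neither compared group, the Osmr value was -0.29. Leaving it out also repeats the filter and the scaling, besides the estimate of spread. With only the compared groups in the edgeR fit Osmr passed (-0.29, adjusted p = 0.0417).

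**Figure D3:**
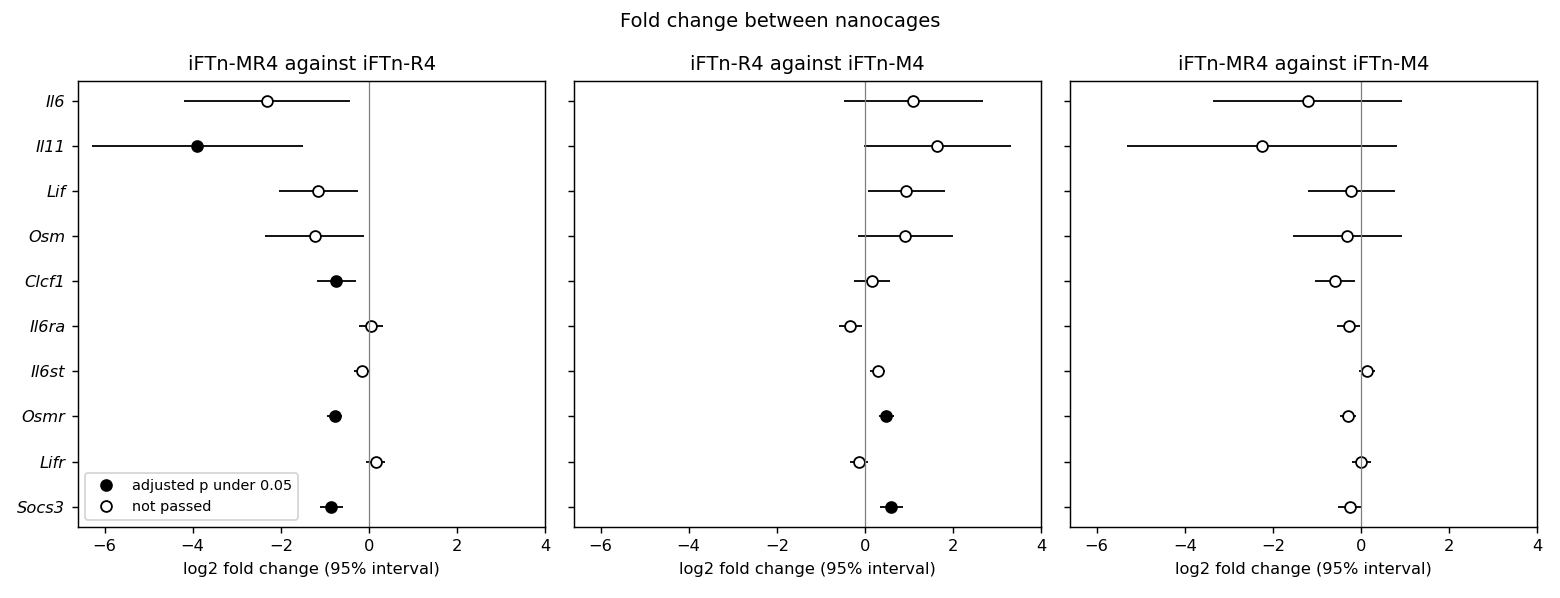
Log2 fold change of each gene between nanocages (x axis, points, with 95% intervals as lines) in edgeR; filled points have an adjusted p under 0.05. In iFTn-MR4 against iFTn-R4 the filled points are Il11, Clcf1, Osmr and Socs3, in iFTn-R4 against iFTn-M4 they are Osmr and Socs3, and in iFTn-MR4 against iFTn-M4 there are 0.

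Levels of different genes can be set side by side only per transcript length, in TPM as deposited (abundance scaled to a fixed sum per library). In PBS the order of group means was Il6st at 77.2, Socs3 at 33.7, Osmr at 26.2, Clcf1 at 9.38, Il6 at 9.18, Lifr at 8.34, Il6ra at 5.96, Osm at 2.52, Lif at 2.22 and Il11 at 1.92 TPM. Clcf1, Lifr and Il6ra lay within the spread of Il6, which ran from 4.6 to 13.8 TPM, and Osm, Lif and Il11 overlapped among themselves. In iFTn-MR4 the order was Il6st at 109, Osmr at 19.6, Lifr at 16.5, Socs3 at 12, Il6ra at 7.06, Clcf1 at 3.58, Osm at 0.88, Il6 at 0.81, Lif at 0.725 and Il11 at 0.035 TPM. Socs3 thus stood below Osmr and Lifr there and above both in PBS.

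Summed over the 5 ligands, the level was 19.2 and 31.3 TPM in PBS, 19.9 and 11.1 in iFTn-R4, 9.9 and 9.18 in iFTn-M4, and 5.4 and 6.65 in iFTn-MR4. The iFTn-R4 libraries overlapped PBS, and the other nanocages did not. Il6 made up 24% and 44% of the ligand sum in PBS, 32.7% and 21.6% in iFTn-R4, 19.7% and 20.8% in iFTn-M4, and 5% and 20.3% in iFTn-MR4. The iFTn-MR4 shares rest on 2 and 10 counts of Il6, the first of them under the floor of 3 counts. The sum over the 4 receptor chains was 117 and 119 TPM in PBS, 193 and 190 in iFTn-R4, 150 and 155 in iFTn-M4, and 150 and 153 in iFTn-MR4. The ratio of Osmr to Lifr, which lie next to each other on chromosome 15, was 3.12 and 3.17 in PBS, 2.43 and 2.19 in iFTn-R4, 1.58 and 1.36 in iFTn-M4, and 1.14 and 1.24 in iFTn-MR4. The ratio was lower in each of these groups than in the one before, without overlap, and no test was run on it or on the sums. Neither was adjusted for the trend of fold changes against PBS with transcript length. With the length offset, log2 fold changes against PBS in iFTn-M4, iFTn-R4 and iFTn-MR4 were 0.45, 0.34 and 0.45 for Lifr. Those for Osmr were -0.44, 0.03 and -0.72. On the TPM scale the median of all genes was itself 0.14, 0.21 and 0.11 (log2) above PBS in iFTn-M4, iFTn-R4 and iFTn-MR4.

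**Figure D4:**
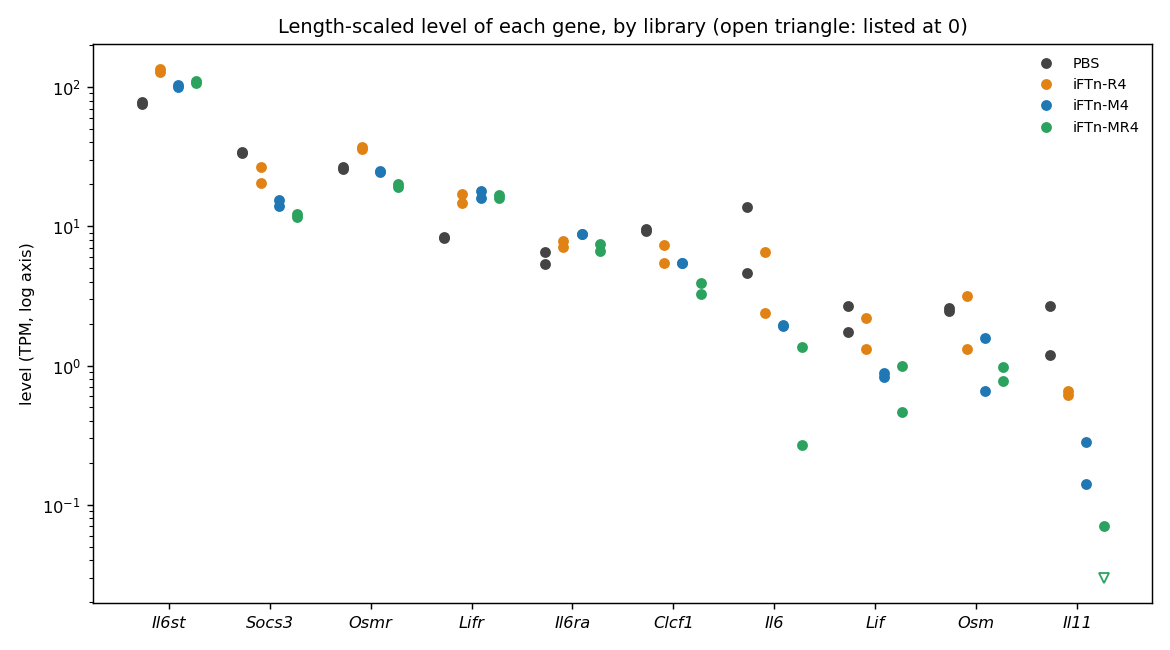
Level of each gene per transcript length (y axis, TPM, log axis) in each of the 8 libraries (points, coloured by group). Genes are in a fixed order that does not follow the levels of any single group. An open triangle marks Il11 in the iFTn-MR4 library where it is listed at 0. Il6st is above every other member in all libraries, from 75.9 to 134 TPM, and the ligands spread over a wider range between groups than the receptors.

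The wider pathway was described with a list of 34 genes: the other ligands and receptors, kinases, STAT factors, adaptors, phosphatases, inhibitors and shedding proteases, of which 31 were tested. In iFTn-M4 against PBS 4 rose and 9 fell, in iFTn-R4 4 rose and 5 fell, and in iFTn-MR4 9 rose and 11 fell, with medians of 0.08, -0.02 and -0.06, close to the 0.00 of all tested genes. The background was 19.8% rising and 21.4% falling in iFTn-M4, 13.9% and 15.4% in iFTn-R4, and 24.6% and 26.3% in iFTn-MR4, so the called shares of the list in iFTn-M4 and iFTn-R4 are near the background. Stat3, the main factor of the family, fell in iFTn-M4 (196 against 293 CPM, -0.58, adjusted p = 0.000528) and iFTn-MR4 (191 CPM, -0.61, adjusted p = 0.000235), and it did not pass in iFTn-R4 (256 CPM, -0.19, adjusted p = 0.0942). The number of listed genes called was 8 in iFTn-M4 without PBS replicate 2 or iFTn-M4 replicate 2, 4 in iFTn-R4 without PBS replicate 2, and 13 in iFTn-MR4 without iFTn-MR4 replicate 1. In iFTn-R4 it was 16 in limma-trend on TPM and 5 when only the groups compared entered the fit. Cntfr, Gab1, Il11ra1, Stat5a and Stat5b on the list had counts split with similar sequences, so their calls are uncertain.

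Jak1 and Jak2, kinases bound to the receptor chains, differed in direction in iFTn-M4 and iFTn-MR4 without the length offset. Jak1 rose in iFTn-M4 (0.22, adjusted p = 0.0339), iFTn-R4 (0.32, adjusted p = 0.0101) and iFTn-MR4 (0.21, adjusted p = 0.0291). Jak2 fell in iFTn-M4 (-0.23, adjusted p = 0.0348) and iFTn-MR4 (-0.35, adjusted p = 0.00418) and was at 0.02 in iFTn-R4 (adjusted p = 0.84). By counts and FPKM, Jak1 has a longer transcript than Osmr, and fold changes against PBS rose with length. In the group of longest tested genes, the median log2 fold change was 0.31 in iFTn-M4, 0.29 in iFTn-R4 and 0.32 in iFTn-MR4. The Jak1 values are therefore not set apart from that trend, and its values with the length offset are not given here. Socs1, an inhibitor related to Socs3, fell in all 3 nanocages, at -2.07, -1.83 and -1.87 in iFTn-M4, iFTn-R4 and iFTn-MR4. Ctf1, a further ligand of the family known for cardiomyocyte growth, rose in iFTn-MR4 (5.02 against 2.90 CPM, 0.79, adjusted p = 0.0243), with 0.57 in iFTn-M4 (adjusted p = 0.0945) and -0.19 in iFTn-R4 (adjusted p = 0.614). The phosphatase Ptpn6, abundant in blood cells, fell in iFTn-M4 (-0.63 ± 0.07), iFTn-R4 (-0.31 ± 0.07, adjusted p = 0.0117) and iFTn-MR4 (-0.90 ± 0.07). Crlf2, the receptor chain for thymic stromal lymphopoietin, fell in iFTn-M4 (-0.98 ± 0.16, adjusted p = 0.0013), iFTn-R4 (-0.94 ± 0.16, adjusted p = 0.00318) and iFTn-MR4 (-1.25 ± 0.17, adjusted p = 0.000252).

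Between nanocages, 5 of the 31 pathway genes rose and 8 fell in iFTn-MR4 against iFTn-R4, 5 rose and 0 fell in iFTn-R4 against iFTn-M4, and 0 rose and 1 fell in iFTn-MR4 against iFTn-M4. The background in these comparisons was 12.6% rising and 14.6% falling, 3.43% and 2.5%, and 0.0215% and 0.344%. Ptpn6 (-0.60 ± 0.07), Stat3 (-0.42) and Jak2 (-0.37) fell in iFTn-MR4 against iFTn-R4, and Ctf1 rose (0.98, adjusted p = 0.0187). In iFTn-R4 against iFTn-M4 Stat3 rose (0.39 ± 0.08), with Jak2 at 0.25 (adjusted p = 0.0846) and Ctf1 at -0.77 (adjusted p = 0.113). The number called in iFTn-MR4 against iFTn-R4 was 6 and 8 without iFTn-MR4 replicate 1 or 2, and in iFTn-R4 against iFTn-M4 it was 1 without iFTn-M4 replicate 2 and 3 when only the groups compared entered the fit. In iFTn-MR4 against iFTn-M4 0 pathway genes were called with the length offset, in limma-trend on TPM, or without any 1 of the PBS, iFTn-M4 and iFTn-MR4 libraries.

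Genes known as targets of STAT3 were described with a list of 29, of which 23 were tested. Against PBS, 14 fell and 3 rose in iFTn-M4, 7 fell and 2 rose in iFTn-R4, and 16 fell and 3 rose in iFTn-MR4, with medians of -0.92, -0.22 and -1.05. The shares of all tested genes that fell were 21.4%, 15.4% and 26.3%, and those that rose were 19.8%, 13.9% and 24.6%. Myc, a growth regulator, fell in all 3, from 38.5 CPM in PBS to 12.4 in iFTn-M4 (-1.63 ± 0.11), 23.8 in iFTn-R4 (-0.69 ± 0.11) and 7.94 in iFTn-MR4 (-2.28 ± 0.12). The NF-kB cofactor Bcl3 fell in iFTn-M4 (-1.19 ± 0.10), iFTn-R4 (-0.50 ± 0.09) and iFTn-MR4 (-1.61 ± 0.10). The AP-1 subunit Junb fell in all 3 too, at -1.12 ± 0.10, -0.71 ± 0.10 and -1.05 ± 0.10 in the same order, as did the acute phase factor Cebpb, at -1.38 ± 0.13, -1.09 ± 0.13 and -1.60 ± 0.13. Timp1, a metalloproteinase inhibitor, went from 248 CPM in PBS to 32 in iFTn-MR4 (-2.95 ± 0.20), and the interleukin 4 receptor chain Il4ra from 184 to 69 (-1.42 ± 0.11). The acute phase protease inhibitor Serpina3n went the other way, from 89.3 CPM in PBS to 225 in iFTn-M4 (1.33 ± 0.17, adjusted p = 0.000322), 277 in iFTn-R4 (1.63 ± 0.17, adjusted p = 0.000536) and 193 in iFTn-MR4 (1.11 ± 0.17, adjusted p = 0.000508). The protease inhibitor A2m, chosen after its values were seen, rose in all 3 as well, at 1.60 ± 0.40, 1.79 ± 0.39 and 3.05 ± 0.36. Many genes of the list answer to other factors too, so its counts do not measure STAT3 activity.

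Between nanocages, 13 of the 23 targets fell and 4 rose in iFTn-MR4 against iFTn-R4 (median -0.52), 7 rose and 0 fell in iFTn-R4 against iFTn-M4 (median 0.41), and 0 were called in iFTn-MR4 against iFTn-M4 (median -0.22). Beside these stand 14.6% of all tested genes that fell and 12.6% that rose in the first comparison, 3.43% that rose and 2.5% that fell in the second, and 0.0215% that rose and 0.344% that fell in the third. In the last of these DESeq2 called 4, limma-trend on TPM called 0, and 7 were called without either iFTn-R4 library. Myc (-1.58 ± 0.12) and Timp1 (-2.25 ± 0.20) fell in iFTn-MR4 against iFTn-R4, with Bcl3 (-1.11 ± 0.10) and Il4ra (-1.13 ± 0.11) beside them. In iFTn-R4 against iFTn-M4 these 4 genes rose, at 0.94 ± 0.12, 1.32 ± 0.19, 0.69 ± 0.10 and 0.71 ± 0.11. The neutrophil granule protein gene Lcn2, chosen after its values were seen, rose more (1.95 ± 0.31, adjusted p = 0.00951). The number called was 9 in iFTn-MR4 against iFTn-R4 without either iFTn-MR4 library, and 1 in iFTn-R4 against iFTn-M4 without iFTn-M4 replicate 2.

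**Figure D5:**
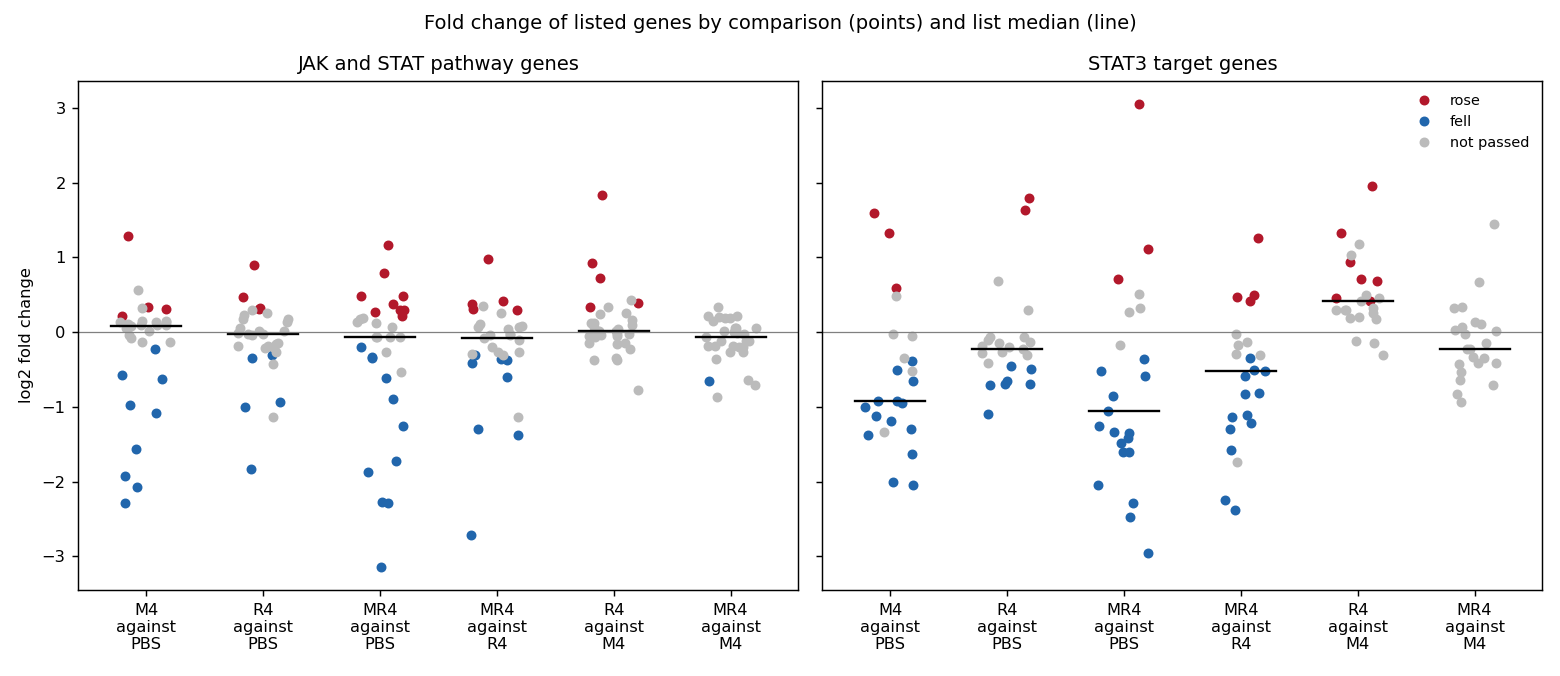
Log2 fold change (y axis) of the 31 tested pathway genes and the 23 tested STAT3 target genes in each of the 6 comparisons (points, coloured by edgeR call) with the list median (line). Target medians lie at -0.92, -0.22 and -1.05 against PBS, while the pathway medians lie between -0.08 and 0.08 in all 6.

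For the 9 members with a mean of at least 1 CPM, the genes most like each in their pattern over the 8 libraries were sought among 11516 genes of at least 5 CPM, by the root mean square difference of centred log2 CPM. Socs3 was followed most closely by Pdlim7 and Srm (0.09 each) and Pgam1 (0.12), against its own spread of 0.68. The nearest to Clcf1 was Sfn (0.07), and that to Lif was Has2, a hyaluronan synthase (0.20). Osm had Bcat1 nearest (0.21), then Gstcd (0.25) and the neutrophil growth factor receptor Csf3r (0.27). The nearest to Il6 was Inhba at 0.55, then Ccl12 (0.59) and Ly6c2 (0.60), against an own spread of 1.47 for Il6. Counts of Ly6c2 were split with similar sequences. Among the receptors, the nearest were Amotl1 to Il6st (0.04), Cdc42bpg to Lifr (0.06), Arl10 to Il6ra (0.06), and Apobec3, Col4a1 and Synpo to Osmr (0.06 each). The receptors' own spreads were small, at 0.20 for Il6st, 0.38 for Lifr, 0.17 for Il6ra and 0.31 for Osmr. Distances are therefore not comparable between members of unlike spread.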

How the data were processed

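The authors deposited RSEM expected counts, FPKM values (fragments per length and library depth) and TPM values (abundance scaled to a fixed sum) per gene, in 1 table for PBS and 1 for the nanocages. Per the submitters' processing notes the tools were HISAT2 2.1.0, Bowtie2 2.2.5 and RSEM 1.2.8, with build GRCm38.p6. Whether counting used strand is not given in the sources used here. Of 17051 and 17788 genes, 16695 are in both tables and 16547 have values in all 8 libraries. Of these values 5.09% are not whole (tolerance 1e-09), none of them in a member.

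Expected counts were rounded and fitted with edgeR 4.0.16 in R 4.3.3, with TMM factors, the filterByExpr filter, 1 mean per group over all 8 libraries (4 residual and 5.63 prior degrees of freedom, biological coefficient of variation 8.47%) and 2-sided quasi-likelihood tests of 6 contrasts. Alternatives were DESeq2 1.42.0, limma-trend 3.58.1 on log2(TPM + 1) or log2(TPM + 0.1), which understates changes of low genes, library totals, no filter, the compared groups alone, a block on replicate number, each library left out, and an offset for transcript length. That offset is a natural spline (4 degrees of freedom) of log2 effective length, which was taken from counts and FPKM. Scripts were tested on simulated data. Counting intervals are exact at 95% and, like the floor of 3 counts, cover counting error only. Whether the 2 libraries in each group are from different animals is not stated in the labels. The p-values therefore measure only how these samples spread, which may be technical. Replicates differed beyond sampling noise (chi-square of 4.95 to 16 per degree of freedom).

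The members, both lists and the markers were chosen with earlier results of these data known. All members are named. From each list the text names up to 4 genes with the lowest adjusted p in a comparison, and Stat3, Jak1, Jak2, Socs1 and Ctf1 always. Some genes that the rule selects are not reported here, though list counts include them. Ctf2, Fga, Fgb, Fgg and Reg3g, and the low genes Il27, Il31ra, Reg3b and Hamp, were listed but not tested. Promoters and coordinates are RefSeq's on GRCm38.p6, and Osm and Clcf1 had no promoter entry.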

Additional observations from a re-analysis of the deposited data

How the results depend on the processing

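Of the 29 member calls, 16 were kept in all 17 alternatives and 13 ended in at least 1, while 9 of the 31 differences that had not passed did so in some, and 0 called values changed sign. With a library left out, the number of members called ran from 4 to 10 in iFTn-M4 against PBS (9 with all libraries), 3 to 6 in iFTn-R4 (5), 7 to 9 in iFTn-MR4 (9), 0 to 1 in iFTn-MR4 against iFTn-M4 (0), 2 to 7 in iFTn-MR4 against iFTn-R4 (4) and 0 to 2 in iFTn-R4 against iFTn-M4 (2). For all tested genes, in the same order, the ranges were 3560 to 6461 (5745), 2055 to 4065 (4096), 5059 to 7684 (7096), 2 to 603 (51), 1635 to 4204 (3801) and 60 to 1379 (827). With only the groups compared in the fit, members called were 1 in iFTn-MR4 against iFTn-M4, 2 in iFTn-MR4 against iFTn-R4 and 0 in iFTn-R4 against iFTn-M4, and genes were 714 in the first and 206 in the last of these and 2528 in iFTn-R4 against PBS. With the length offset 1943 genes were called in iFTn-R4 against PBS. For iFTn-MR4 against iFTn-M4 DESeq2 called 353 genes, limma-trend 22 with either pseudocount and 4 without a filter, and for iFTn-R4 against iFTn-M4 limma-trend without a filter called 433. The cause of these differences was not tested. The labels do not say that a replicate number marks a shared animal or day, and same-numbered deviations correlated at 0.01 to 0.18 between groups, so the samples were taken to share only a number. The replicate block called 271 genes in iFTn-MR4 against iFTn-M4, where 51 were called without it, and let Il6st pass in iFTn-M4 against PBS (0.21, adjusted p = 0.0438) and in iFTn-R4 against iFTn-M4 (0.29, adjusted p = 0.0473), with no other member call changed. On library totals the split of all genes was 2490 rising and 1575 falling in iFTn-R4 against PBS, 1148 and 2850 in iFTn-MR4 against iFTn-R4, and 629 and 254 in iFTn-R4 against iFTn-M4. In limma-trend on log2(TPM + 1) it was 4102 and 1725, 4444 and 658, and 4251 and 2566 against PBS in iFTn-M4, iFTn-R4 and iFTn-MR4, 963 and 2840 in iFTn-MR4 against iFTn-R4 and 593 and 167 in iFTn-R4 against iFTn-M4, where edgeR gave 2764 and 2981, 1945 and 2151, 3430 and 3666, 1758 and 2043, and 478 and 349. DESeq2 gave no adjusted p for Il11 in iFTn-R4 against PBS, and a ligand at 0 to 48 counts per library has little precision at this depth.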
